A study of Mus musculus with 32 samples.

Results

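The genes described are 10 genes of the unfolded protein response of the endoplasmic reticulum (ER), namely Hspa5, Hsp90b1, Pdia4, Dnajb9, Sdf2l1, Creld2, Manf, Herpud1, Xbp1 and Ddit3. They were taken by gene symbol from both deposited tables, as 10 of 35275 genes with raw counts and of 35186 genes with length-scaled values. All 10 passed the filter on low counts in both experiments, and the lowest count of any of them in any library was 247, for Ddit3.

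The ER is where secreted and membrane proteins are folded, and alveolar type 2 cells, secretory cells of the airway and plasma cells of the lung all depend on it. When unfolded proteins accumulate there, 3 sensors in the ER membrane (IRE1, PERK and ATF6) signal to the nucleus. IRE1 splices the mRNA of Xbp1, PERK acts through the transcription factor ATF4, and ATF6 is cut to release a transcription factor. Their targets are the chaperones and folding enzymes of the ER, the machinery that removes misfolded proteins (ER-associated degradation) and, under lasting stress, the death-related factor CHOP, the product of Ddit3. The counts are per gene, so the spliced and unspliced forms of Xbp1 cannot be told apart here.

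Poly(A) RNA was sequenced from whole lungs of C57B/6 mice in 32 libraries of 8 groups, each with at least 13790052 and at most 24497332 counts. The first experiment had no surgery and an exposure time of 5 months. Its groups were females in cigarette smoke (n = 5), females in room air (n = 3), males in cigarette smoke (n = 5) and males in room air (n = 3). The second experiment used females only, all in cigarette smoke, which the controls shared, and had no air group. Its groups were ovariectomized (n = 3) and sham-operated mice (n = 3) at 3 months, and ovariectomized (n = 5) and sham-operated mice (n = 5) at 5 months. The labels give no age, hour of collection, hormone level or smoke dose, and nothing in them says that replicate libraries are separate animals, so p-values measure a spread between libraries that may be technical. The markers of lung were present in every library, with the alveolar type 2 gene Sftpc at 19530 to 33200 CPM (counts scaled to the same library total) and the alveolar type 1 gene Ager at 2487 to 5761 CPM. The liver gene Alb exceeded 100 CPM in 7 libraries, which were ovariectomized 2 and 3 at 3 months, sham 1 and 2 and ovariectomized 5 at 5 months, male air 1 and female air 2. Where a call among the 10 genes changed without these libraries, the values with and without them are given.

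Promoter sequences are shown first because the response is known for short DNA elements that its target genes carry close to their start. The windows are the 250 bases before the RefSeq gene start in GRCm38.p6, and 9 of the 10 genes could be matched to one. The ER stress response element, searched on both strands, was found in 0.113% of 32851 mouse promoter windows and in those of 3 of the 9 genes, Hspa5, Hsp90b1 and Creld2. The ER stress response element II, also searched on both strands, was found in 0.0304% of all windows and here in Herpud1 alone among the 9. TGATGNAA (N for any base), the element bound by C/EBP and ATF factors, was found in 3.45% of all windows and again in Herpud1 alone. TGACGTGG, an element bound by ATF6 and XBP1, was found in 0.563% of all windows and in 0 of the 9. The ER stress response elements I and II were first described in promoters of ER chaperones and of Herpud1, so their matches are a description and not independent evidence. No 2 matches overlapped. Only exact matches to the searched letters were counted. Variants of an element are therefore not marked, and the numbers of matches are not totals of the elements a promoter carries. The 4 windows with matches are printed 5′ to 3′ on the strand of the gene, with the matched bases in capitals. They belong to the genes that the comparisons called, Manf apart, and to Hspa5, the central chaperone.
Herpud1 (chr8:94386179-94386428, plus strand; first the C/EBP and ATF element in reverse orientation, then element II): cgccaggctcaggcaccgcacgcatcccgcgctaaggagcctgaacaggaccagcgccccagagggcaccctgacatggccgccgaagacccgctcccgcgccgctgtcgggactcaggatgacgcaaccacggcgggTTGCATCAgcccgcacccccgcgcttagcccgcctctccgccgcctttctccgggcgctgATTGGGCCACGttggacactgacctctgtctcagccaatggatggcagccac
Creld2 (chr15:88819396-88819645, plus strand; the ER stress response element in reverse orientation): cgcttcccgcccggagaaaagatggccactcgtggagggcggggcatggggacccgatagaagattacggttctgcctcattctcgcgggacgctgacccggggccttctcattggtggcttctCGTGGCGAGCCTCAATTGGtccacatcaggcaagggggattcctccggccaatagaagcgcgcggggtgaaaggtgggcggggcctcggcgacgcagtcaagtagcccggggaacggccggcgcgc
Hsp90b1 (chr10:86705445-86705694, minus strand; 2 ER stress response elements, the second in reverse orientation): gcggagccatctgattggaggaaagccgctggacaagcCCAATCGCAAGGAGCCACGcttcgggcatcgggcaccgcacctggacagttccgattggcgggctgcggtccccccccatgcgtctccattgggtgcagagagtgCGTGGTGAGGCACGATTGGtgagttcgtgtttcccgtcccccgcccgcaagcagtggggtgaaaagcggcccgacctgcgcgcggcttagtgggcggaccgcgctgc
Hspa5 (chr2:34771840-34772089, plus strand; 1 ER stress response element): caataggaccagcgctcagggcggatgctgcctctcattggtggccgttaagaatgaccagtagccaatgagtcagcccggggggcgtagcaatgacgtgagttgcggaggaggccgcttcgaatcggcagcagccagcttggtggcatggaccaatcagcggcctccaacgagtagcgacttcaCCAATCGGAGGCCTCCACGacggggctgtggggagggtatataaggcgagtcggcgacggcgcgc
The matches lay 126 to 108 bases before the start in Creld2, 65 to 47 in Hspa5, and 212 to 194 and 107 to 89 in Hsp90b1. In Herpud1 the C/EBP and ATF element lay at 112 to 105 bases and element II at 52 to 42. In the deposited gene models Hspa5 starts at 34771970 and Hsp90b1, on the minus strand, at 86705509, both inside their windows, so the distance depends on the gene model.

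**Figure D1:**
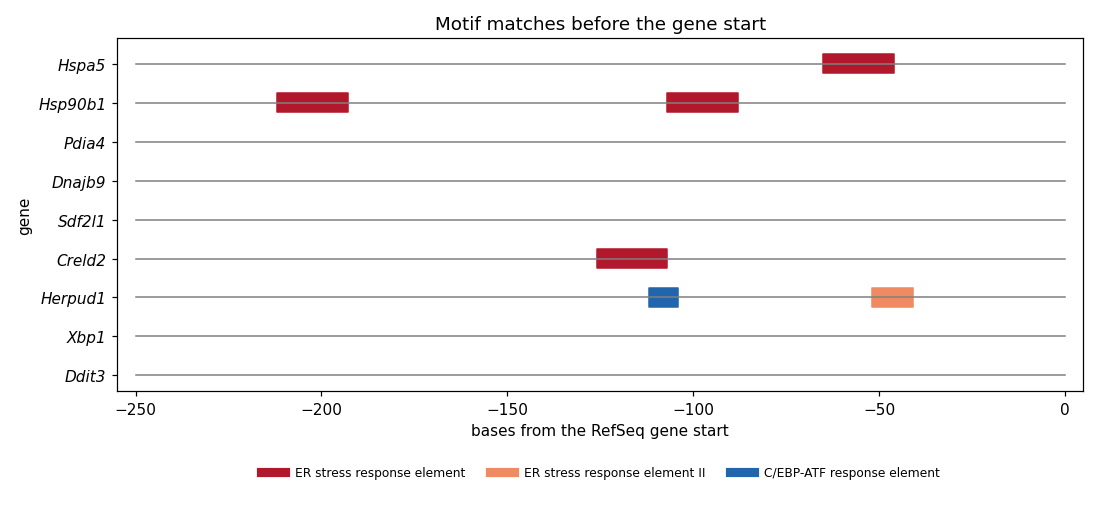
Position of motif matches in the 250 bases before the RefSeq gene start, 1 line per gene and 1 coloured block per match (horizontal axis, bases from the start). Matches of the ER stress response element are seen in Hspa5, Creld2 and Hsp90b1 (2 matches), and those of element II and of the C/EBP-ATF element in Herpud1. The other 5 lines carry no exact match.

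The level of the 10 genes was set by TPM values, which are scaled by gene length and library total and so allow genes to be compared. Hspa5, which encodes BiP, the main HSP70-type chaperone of the ER, averaged 579 TPM over the 32 libraries. Hsp90b1, which encodes the HSP90-type chaperone GRP94, averaged 274 TPM, Xbp1 247 TPM and Herpud1 208 TPM. The averages of Pdia4, Manf, Dnajb9, Creld2, Ddit3 and Sdf2l1 were 119, 108, 89.8, 79.9, 48.5 and 47.2 TPM. The spread between libraries of a group, as a pooled coefficient of variation of the TPM values, was smallest in Xbp1 (7.92%) and largest in Sdf2l1 (18.3%).

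Over the 8 groups, Herpud1 varied most. Its highest group mean was 1.86 times its lowest, against 1.17 times for Xbp1, which varied least, and 1.25 to 1.51 times for the other 8. Herpud1 had 299 ± 17.5 TPM in female air (SD, n = 3), the highest group, then 236 ± 10.5 in male air (n = 3), 225 ± 42.0 and 206 ± 9.05 in ovariectomized mice at 5 and 3 months (n = 5 and 3), 205 ± 18.2 and 189.6 ± 30.6 in sham mice at 5 and 3 months (n = 5 and 3), 185 ± 14.8 in female smoke (n = 5) and 161 ± 16.3 in male smoke (n = 5). Female air, at 283 to 318 TPM, did not overlap its nearest neighbour male air, at 224 to 244 TPM. All the other neighbours in that order overlapped. The experiments share no group, so a difference between groups of different experiments cannot be told apart from a difference between the experiments. Hspa5, the most abundant of the 10, had its lowest and its highest group mean at 5 months, with 527 ± 54.2 TPM in ovariectomized and 657 ± 57.6 TPM in sham mice (SD, n = 5 each).

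Levels after 5 months of smoke were set against those in air in each sex, with 5 smoke and 3 air libraries. In the library titles, the smoke libraries of both sexes and the air libraries of both sexes fall in separate runs of numbers. The labels do not say what these runs mean. A difference between smoke and air can therefore not be told apart from a difference between the runs. One gene, Herpud1, fell in both sexes, 1.66-fold in females and 1.43-fold in males. Herpud1, the gene with both element II and the C/EBP and ATF element in the window shown, encodes a ubiquitin-like protein of the ER membrane that belongs to the complex of ER-associated degradation around the ubiquitin ligase HRD1. Hsp90b1 rose 1.22-fold in females. The other members did not pass the test in either sex, and the median log2 fold change of the 10 was -0.09 in females and -0.03 in males, beside medians over all genes tested of -0.01 in females and 0.01 in males.

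Herpud1 (chromosome 8, 94386438 to 94395377, plus strand, ENSMUSG00000031770) had 156, 177, 183, 153 and 188 CPM in the 5 female smoke libraries, against 289.8, 279.7 and 287 CPM in the 3 female air libraries. Every smoke library lay below every air library, and the gap between the groups was wider than the range within either. In males it had 142, 156, 167, 145 and 147.5 CPM in smoke, against 218, 227 and 206.5 CPM in air. The male groups did not overlap either, and the male air libraries lay below the female air libraries. Herpud1 averaged 171.6 ± 15.9 CPM in female smoke (SD, n = 5) and 285.5 ± 5.18 CPM in female air (n = 3), a log2 fold change of -0.73 (SE 0.08; adjusted p = 2.59e-05, edgeR's quasi-likelihood test with Benjamini-Hochberg adjustment over all genes). It averaged 151.5 ± 10.04 CPM in male smoke (n = 5) and 217 ± 10.5 CPM in male air (n = 3), a log2 fold change of -0.52 (SE 0.08; adjusted p = 2.26e-04 in the same test). Its call held in both sexes under all 10 other settings and without each library in turn. In whole tissue, fewer cells of a type and less RNA per cell cannot be told apart. The reverse-strand gene Gm15890 overlaps Herpud1, and whether the counting used strand is not given in the sources used here, so reads of the pair cannot be told apart. Gm15890 was not called in either sex, with log2 fold changes of -1.89 (SE 0.68) in females and -1.28 (SE 0.73) in males.

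Among the chaperones, Hsp90b1 (chromosome 10, 86690209 to 86705509, minus strand, ENSMUSG00000020048) rose in females. It had 475, 410.0, 410.0, 426 and 495 CPM in smoke, against 382, 355 and 357 CPM in air. No smoke library reached down to the air libraries, although the gap, from 410.0 down to 382 CPM, was smaller than the range within smoke. In males it had 369, 332, 381, 409 and 379 CPM in smoke, against 373, 394 and 433 CPM in air, and the groups overlapped. Hsp90b1 averaged 443 ± 39.6 CPM in female smoke (n = 5) and 364.5 ± 15.1 CPM in female air (n = 3), a log2 fold change of 0.28 (SE 0.09; adjusted p = 0.0467, edgeR's quasi-likelihood test with Benjamini-Hochberg adjustment). That call was lost without any 1 of the 3 female air libraries or of female smoke libraries 1, 4 and 5 (log2 fold changes of 0.24 to 0.32, adjusted p up to 0.200), and without the libraries over 100 CPM of Alb (0.25, adjusted p = 0.163). It was also lost with no filter on low counts (0.29, adjusted p = 0.0575, edgeR), with the replicate block (0.24, adjusted p = 0.126) and with only the groups compared (0.30, adjusted p = 0.0602), so the size of the rise moved little while the call did not hold. In males its log2 fold change was -0.10 (SE 0.08, adjusted p = 0.547). The genes Gm15344, on the same strand, and 1810014B01Rik overlap Hsp90b1, and neither was called (adjusted p = 0.634 and 0.688 in females, edgeR). The log2 fold change of Gm15344 was 0.40 (SE 0.41) in females and -1.19 (SE 0.41, adjusted p = 0.0674, edgeR) in males. That of 1810014B01Rik was 0.32 (SE 0.37) in females and -0.25 (SE 0.37) in males. Whether reads of these genes entered the Hsp90b1 counts was not tested.

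Hspa5 (chromosome 2, 34771970 to 34776531, plus strand) was not called in either sex. Its log2 fold change was -0.003 (95% interval -0.26 to 0.25) in females and -0.06 (-0.31 to 0.20) in males. Female smoke libraries lay at 630.0 to 806 CPM and female air libraries at 668 to 775 CPM. Male smoke libraries lay at 608.5 to 742 CPM and male air libraries at 588 to 902 CPM, the upper end being male air library 3. Pdia4 (chromosome 6, 47796142 to 47813512, minus strand), a disulfide isomerase of the ER, had 128, 129, 140.4, 139 and 136 CPM in male smoke, against 141, 154 and 179.9 CPM in male air. These groups touched without overlapping, 140.4 against 141.3 CPM, and the test was missed (log2 fold change -0.23, SE 0.08, adjusted p = 0.0691, edgeR). Pdia4 was called in males without male air library 1, one of the libraries over 100 CPM of Alb (log2 fold change -0.34, adjusted p = 0.0149), without all libraries over 100 CPM of Alb (-0.34, adjusted p = 0.0178), and by DESeq2 (adjusted p = 0.0398). In females Pdia4 averaged 151 ± 10.1 CPM in smoke and 149.6 ± 8.58 CPM in air (n = 5 and 3). Dnajb9, a J-domain partner of BiP that also restrains IRE1, averaged 76.3 ± 8.93 CPM in female smoke and 85.5 ± 7.08 CPM in female air, and 71.7 ± 9.39 CPM in male smoke and 69.9 ± 4.12 CPM in male air. Sdf2l1, an ER protein that works with J-domain chaperones, averaged 26.6 ± 3.66 CPM in female smoke and 26.6 ± 3.98 CPM in female air, and 21.5 ± 2.40 CPM in male smoke and 19.8 ± 0.404 CPM in male air. Neither gene passed the test in either sex.

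Of the ER proteins that can be secreted, Manf had the larger fold change in females. It encodes a small protein that is held in the ER through BiP, leaves the cell under ER stress and is known as a neurotrophic factor. Manf had 106, 116, 119, 89.8 and 124 CPM in female smoke, against 120.3, 128 and 165.5 CPM in female air. The groups overlapped, with 1 smoke library above the lowest air library (log2 fold change -0.31, SE 0.15, adjusted p = 0.244, edgeR). Creld2, an ER protein with disulfide isomerase activity, overlapped as well, at 45.1 to 62.0 CPM in female smoke and 53.0 to 72.5 CPM in female air. In males the log2 fold changes were -0.01 (SE 0.15) for Manf and -0.11 (SE 0.13) for Creld2. The transcription factor genes were not called either. Xbp1 averaged 256 ± 12.1 CPM in female smoke and 275 ± 29.0 CPM in female air, and 240.2 ± 11.1 CPM in male smoke and 237 ± 16.2 CPM in male air. Ddit3 lay at 17.1 to 28.8 CPM in female smoke libraries and at 22.2 to 28.3 CPM in those of female air. In males it lay at 21.9 to 25.0 CPM in smoke and at 18.8 to 22.6 CPM in air.

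By count, 1 member rose and 1 fell in females, where 7.7% of the 16361 genes tested were called (4.52% higher and 3.18% lower). In males 0 rose and 1 fell, where 10.3% were called (4.93% higher and 5.33% lower). At an unadjusted p under 0.05 the counts were 1 higher and 1 lower in females, where 11.3% of all genes were higher and 10% lower, and 0 higher and 2 lower in males, where 11.9% were higher and 11.2% lower. Of the 10 log2 fold changes, 3 were above 0 and 7 below in females (47.9% and 52.1% of all genes), and 4 were above and 6 below in males (51.3% and 48.7%). Without overlap between the groups, 1 member was higher (Hsp90b1) and 1 lower (Herpud1) in females, where 8.04% and 6.47% of all genes were, and 0 were higher and 2 lower (Herpud1 and Pdia4) in males, where 8.61% and 8.21% were. The members called were 20% of the 10 in females, against 7.7% of all genes, and 10% in males, against 10.3%, and 1 gene is 10% of so short a list. The shares over all genes also moved when single libraries were left out, and such fits hold fewer libraries. In females 1259 genes were called, but 1040, 801 and 490 without female air libraries 1, 2 and 3. In males 1678 genes were called, but 1445, 1140 and 962 without male air libraries 1, 2 and 3.

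**Figure D2:**
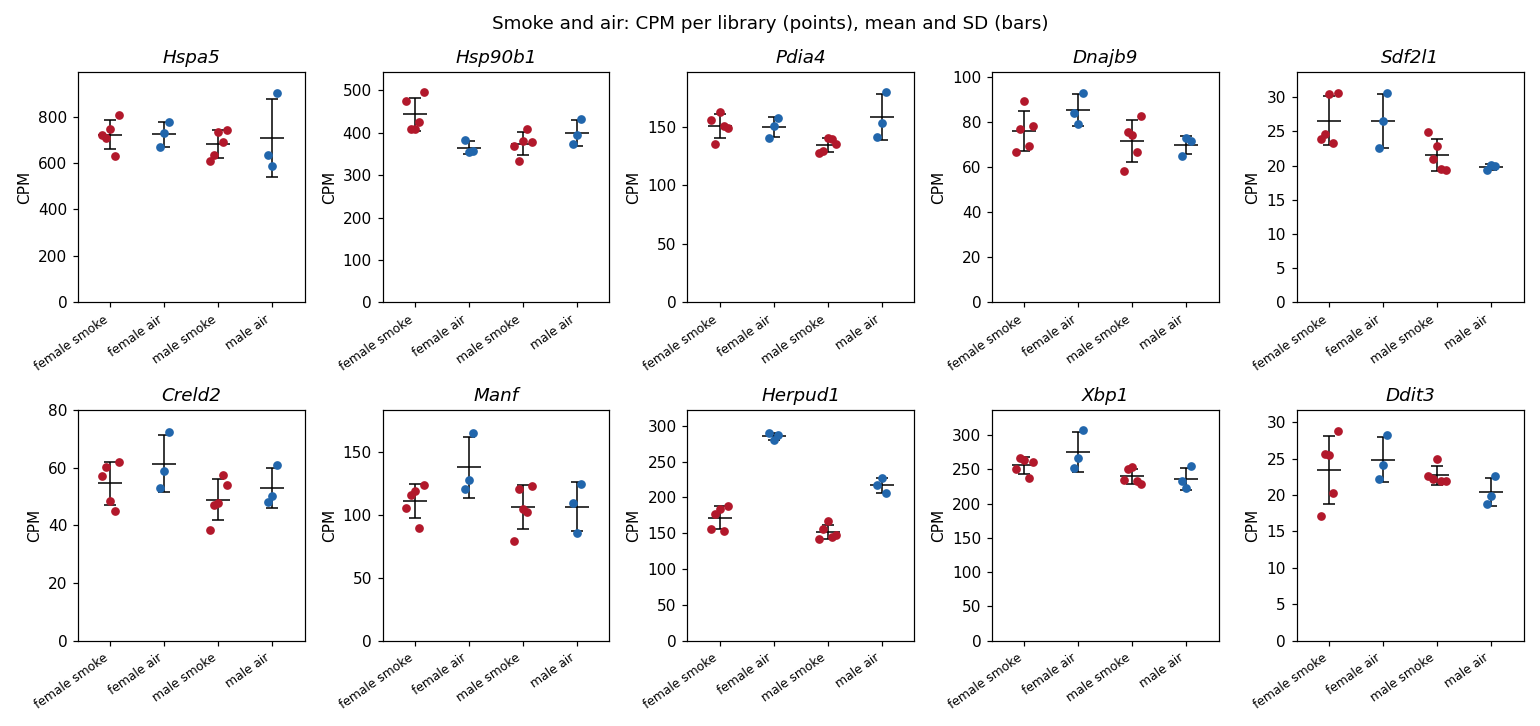
Levels of the 10 genes in the first experiment in CPM (linear axis from 0), 1 point per library, with the mean (long bar) and SD (capped line) of each group. Herpud1 sits between 153 and 188 CPM in female smoke and between 279.7 and 289.8 CPM in female air, and between 142 and 167 CPM in male smoke and between 206.5 and 227 CPM in male air, while most other genes overlap.

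Whether the sexes differed in the response was tested as the interaction of sex and smoke, coded as the female minus the male log2 fold change. By edgeR, DESeq2 and limma, 0 of the 10 members were called, where edgeR called 0.00611% of all genes, and 2 members were higher at an unadjusted p under 0.05 (3.05% of all genes). These were Hsp90b1, with a difference of 0.38 (SE 0.12, unadjusted p = 0.00464 in edgeR's model across all genes, adjusted p = 0.748), and Pdia4, with 0.25 (SE 0.11, unadjusted p = 0.0434 in the same model, adjusted p = 0.854). Hsp90b1 lay higher in smoke than in air in females and lower in males, and for Pdia4 the male fold change was the larger. For Herpud1 the difference was -0.22 (95% interval -0.46 to 0.03; adjusted p = 0.858, edgeR).

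Females were set against males within each exposure. In smoke, 0 of 10 members were called by edgeR, DESeq2 or limma, where edgeR called 0.189% of all genes, although all 10 log2 fold changes were above 0 (48.8% of all genes were) and 4 were higher at an unadjusted p under 0.05 (3.45% of all genes). These 4 were Hsp90b1, Sdf2l1, Herpud1 and Pdia4, with log2 fold changes of 0.25, 0.31, 0.18 and 0.16. Hsp90b1 was the member whose groups did not overlap, with the 5 female libraries at 410.0 to 495 CPM above the 5 male libraries at 332 to 409 CPM (adjusted p = 0.337, edgeR), and 1.6% of all genes had such groups.

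In air, again 0 of 10 were called by edgeR, where 0.177% of all genes were called, and 0 by limma. DESeq2 called 1, Herpud1, at an adjusted p of 0.00501. Herpud1 averaged 285.5 ± 5.18 CPM in female air and 217 ± 10.5 CPM in male air (n = 3 each), a log2 fold change of 0.39 (SE 0.09; adjusted p = 0.0805, edgeR). Of the 10 log2 fold changes 8 were above 0 (51.4% of all genes were). At an unadjusted p under 0.05, 5 members were higher in females (4.04% of all genes), namely Herpud1, Sdf2l1, Xbp1, Dnajb9 and Manf. The groups of Herpud1, Sdf2l1 and Dnajb9 did not overlap, where 16.7% of all genes had such groups. Sdf2l1 had 22.6, 26.5 and 30.6 CPM in female air, against 19.4, 20.1 and 19.9 CPM in male air, and Dnajb9 had 84.0, 79.2 and 93.1 CPM in female air, against 65.2, 73.0 and 71.5 CPM in male air. The same air libraries served the smoke comparisons, so the Herpud1 level in female air enters both its sex difference and its fall with smoke.

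Other genes of the pathway were taken from 7 lists with 97 genes, of which 96 were tested in the first experiment. In females 1 rose and 2 fell with smoke, and in males 0 rose and 6 fell. These are 3.12% of the 96 in females, against 7.7% of all genes, and 6.25% in males, against 10.3%. The shares over all genes moved when single libraries were left out, with 490 genes called in females without female air library 3 and 962 in males without male air library 3. No difference between the lists and all genes is read from these shares. Of 20 ER chaperones and folding enzymes, 0 were called in females and 2 fell in males, the lectin chaperone gene Calr (509 ± 35.9 CPM in smoke and 622 ± 47.1 CPM in air) and Dnajb11, a J-domain partner of BiP (84.4 ± 5.10 and 103.5 ± 8.21 CPM in smoke and in air). Of 16 genes of ER-associated degradation, the process in which Herpud1 acts, 0 were called in either sex. Of 20 genes of the PERK and ATF4 arm, Shmt2, a mitochondrial enzyme of serine use, fell in females (log2 fold change -0.37), and the transcription factor gene Cebpb and the amino acid transporter gene Slc3a2 fell in males (-0.48 and -0.35). Of 13 genes of coat and Golgi transport, Kdelr3, a receptor that returns escaped chaperones to the ER, fell in both sexes (-0.74 in females and -0.88 in males), and its paralogue Kdelr2 fell in males (-0.28). Of 16 genes of translocation into the ER, Sec61g, a subunit of the channel, rose in females (0.61). The 7 sensor genes and the 5 genes of the CREB3 family had 0 calls. So had the 11 genes of the cytosolic heat shock response, with median log2 fold changes of -0.27 in females and -0.41 in males.

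Other groups of genes moved with smoke as well, and their part in the fall of Herpud1 was not tested. Of 10 genes of the Per and Dbp arm of the circadian clock, 8 fell in each sex, and their summed level ran from 449.6 to 571 CPM in female smoke against 1007 to 1233 CPM in female air, and from 374 to 459 CPM in male smoke against 711 to 987 CPM in male air. Of 5 genes of the Bmal1 arm, 4 rose in each sex (159.9 to 196 against 76.2 to 111 CPM in females, and 191 to 216 against 101 to 147 CPM in males, smoke against air). Of 8 fibroblast genes, 5 fell in each sex (1403 to 1796 against 2540 to 2733 CPM in females, and 1778 to 1856 against 3115 to 4576 CPM in males, smoke against air). Plasma cells, which are rich in ER, were marked by 14 genes, of which 5 rose in females and 2 in males (789 to 2050 against 489.9 to 524 CPM in females, and 713 to 1175 against 481 to 524.5 CPM in males, smoke against air). Of 8 alveolar type 1 genes 4 rose in females and 6 in males. Of 9 mitochondrially encoded genes 4 rose in each sex. No gene of these lists was at 0 in all libraries of a group. Of 8 markers, the alveolar type 2 list had 1 rise in females and 0 calls in males, the macrophage list 1 rise in each sex, and the club cell and cardiac muscle lists 0 calls. The liver list had 0 calls in females and 5 falls in males, with 1 of its 8 genes at 0 in all female smoke libraries and 3 at 0 in all male smoke libraries, and the adipocyte list 0 calls in females and 1 rise and 1 fall in males.

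Ovariectomized and sham-operated females, all in smoke, were compared at 3 and 5 months. Each group of this experiment has its own run of numbers in the library titles, and the labels do not say what the runs mean. Differences by surgery or by time can therefore not be told apart from differences between the runs. At 5 months Creld2 and Manf fell, by factors of 1.34 and 1.36. Another 7 members lay lower in ovariectomized mice without passing the test, and Herpud1 lay higher. At 3 months no member was called.

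Creld2 (chromosome 15, 88819646 to 88826681, plus strand, ENSMUSG00000023272) had 36.5, 40.7, 45.0, 37.1 and 47.8 CPM in ovariectomized mice at 5 months, against 53.4, 60.9, 53.3, 53.9 and 56.1 CPM in sham mice. The groups did not overlap, and 4 of the 5 sham libraries lay between 53.3 and 56.1 CPM. Manf (chromosome 9, 106838312 to 106891979, minus strand, ENSMUSG00000032575) had 90.2, 101, 100.5, 92.5 and 119 CPM in ovariectomized mice, against 144, 162, 120.5, 128 and 132 CPM in sham mice. These groups did not overlap either, but the highest ovariectomized library, library 5, and the lowest sham library, library 3, were close, at 119.1 and 120.5 CPM. Creld2 averaged 41.4 ± 4.91 CPM in ovariectomized and 55.5 ± 3.21 CPM in sham mice (SD, n = 5 each), a log2 fold change of -0.42 (SE 0.08; adjusted p = 0.0145, edgeR's quasi-likelihood test with Benjamini-Hochberg adjustment). Manf averaged 100.7 ± 11.4 CPM in ovariectomized and 137 ± 16.3 CPM in sham mice (n = 5 each), a log2 fold change of -0.45 (SE 0.09; adjusted p = 0.0179 in the same test). The call of Creld2 held under all 10 other settings and without each library in turn. That of Manf was lost without sham library 1 (log2 fold change -0.43, adjusted p = 0.0627), without ovariectomized library 1 (-0.41, adjusted p = 0.0576) and with all 32 libraries in 1 fit (-0.45, adjusted p = 0.0558), with a fold change close to that above each time. Vprbp and Rbm15b overlap Manf, Rbm15b on the same strand, and neither was called (log2 fold changes -0.03 and 0.04, adjusted p = 0.907 and 0.869, edgeR). Whether reads of Vprbp or Rbm15b entered the Manf counts was not tested.

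By count, 2 of 10 members fell and 0 rose at 5 months, where 1.36% of 16874 genes were called (0.776% lower). That share moved when single libraries were left out, and such fits also hold fewer libraries. With all libraries 230 genes were called. Without sham libraries 1 to 5 in turn, 39, 252, 94, 98 and 80 genes were called. Without ovariectomized libraries 1 to 5 in turn, the counts were 72, 259, 118, 118 and 170. At an unadjusted p under 0.05, 6 were lower, where 8.19% of all genes were lower at that p, and 9 of 10 log2 fold changes were below 0, where 52.4% of all genes were. The median of the 10 was -0.21, against -0.01 over all genes. Groups that did not overlap were seen for Creld2 and Manf alone, and 3.85% of all genes had such groups. The members vary together between libraries of a group (r of 0.265 to 0.738 with the mean of the others). They were also chosen with earlier results of these data known. Counts of members, here and in the other comparisons, are therefore not separate observations and are given as a description.

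The chaperones lay lower by smaller factors. Hspa5 had 694, 612, 615, 609 and 775 CPM in ovariectomized mice at 5 months, against 752, 879, 834, 755 and 702 CPM in sham mice. The groups overlapped through ovariectomized library 5, the one of that group with over 100 CPM of Alb (log2 fold change -0.25, SE 0.08, adjusted p = 0.126, edgeR). Hsp90b1 averaged 403 ± 21.1 CPM in ovariectomized and 449.5 ± 26.4 CPM in sham mice, with a log2 fold change of -0.16 (adjusted p = 0.244, edgeR). Those of Pdia4, Dnajb9 and Sdf2l1 were -0.17, -0.20 and -0.41 (adjusted p = 0.395, 0.412 and 0.287, edgeR). Sdf2l1, the least abundant of the 10 per length, had the widest interval, from -0.80 to -0.01. For the transcription factor genes they were -0.15 for Xbp1 and -0.23 for Ddit3 (adjusted p = 0.257 and 0.329, edgeR). Herpud1 had 174, 176, 222, 209.5 and 271 CPM in ovariectomized mice, against 174, 189, 205, 169 and 175 CPM in sham mice. Of its ovariectomized libraries 3 lay above all 5 sham libraries and 2 within their range (log2 fold change 0.21, SE 0.11, adjusted p = 0.375, edgeR).

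**Figure D3:**
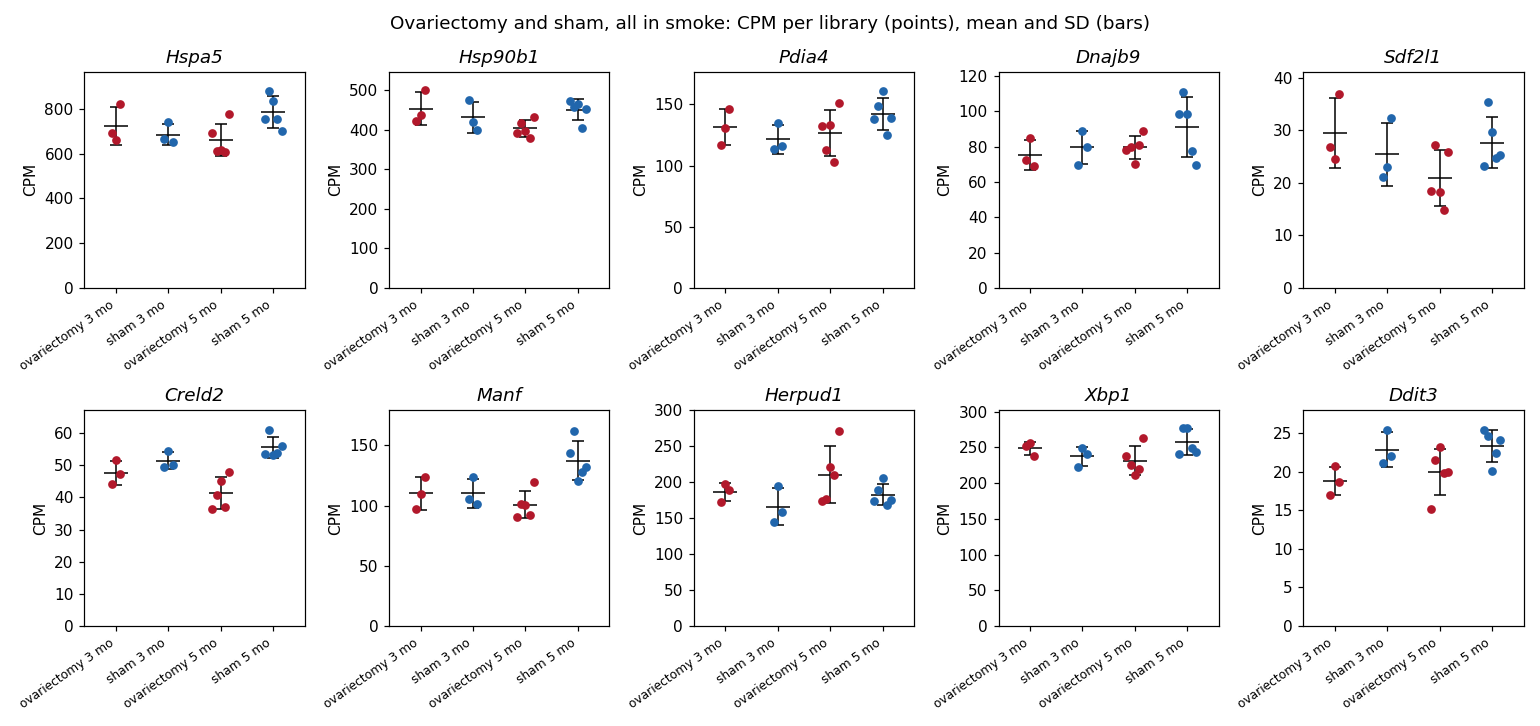
Levels of the 10 genes in the second experiment in CPM (linear axis from 0), 1 point per library, with the mean (long bar) and SD (capped line), all in smoke, at 3 and 5 months (mo). At 5 months Creld2 sits between 36.5 and 47.8 CPM in ovariectomized and between 53.3 and 60.9 CPM in sham mice, and Manf between 90.2 and 119.1 CPM and between 120.5 and 162 CPM, ovariectomized before sham.

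At 3 months edgeR and limma called 0 of the 10 members, as did DESeq2, and edgeR called 0% of all genes. At an unadjusted p under 0.05 the count was also 0, where 9.29% of all genes were under it. Creld2 had 44.2, 51.6 and 47.4 CPM in ovariectomized mice, against 49.5, 54.4 and 50.1 CPM in sham mice. Manf had 96.9, 109.5 and 124 CPM in ovariectomized mice, against 105.5, 124 and 101 CPM in sham mice. Both genes overlapped between the groups, with log2 fold changes of -0.11 (95% interval -0.33 to 0.12) and 0.002 (-0.25 to 0.25). Ddit3 was the member without overlap, at 17.0, 20.7 and 18.7 CPM in ovariectomized mice, against 21.1, 25.4 and 22.01 CPM in sham mice (log2 fold change -0.28, SE 0.14, adjusted p = 0.558, edgeR), and 15.2% of all genes had such groups. The reverse-strand genes Mars and Gm4189 overlap Ddit3, and since the use of strand is not given, their reads cannot be told apart from those of Ddit3. Mars was not called (log2 fold change -0.04, SE 0.11, adjusted p = 0.943, edgeR).

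The change of the surgery effect with time, tested as the log2 fold change at 5 months minus that at 3 months, was called for 0 of 10 members by edgeR, DESeq2 and limma, and edgeR called 0% of all genes. At an unadjusted p under 0.05, 4 members had a lower effect at 5 months, where 2.75% of all genes did, and 8 of the 10 differences were below 0 (52.8% of all genes). For Manf the difference was -0.45 (95% interval -0.77 to -0.13), for Hspa5 -0.33 (-0.61 to -0.04), for Creld2 -0.32 (-0.60 to -0.03) and for Hsp90b1 -0.23 (-0.47 to 0.01), all with an adjusted p of 0.938 in edgeR. Intervals rest on the 12 degrees of freedom among the libraries of an experiment, fewer than the test uses, so an interval can reach 0 where the unadjusted p is under 0.05. The falls of Creld2 and Manf at 5 months are therefore not shown to differ from the values at 3 months, where groups held 3 libraries each.

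Set against 3 months, 5 months gave 0 calls among the members in sham mice, where edgeR called 0.00593% of all genes, and 0 in ovariectomized mice, where it called 0.0178%. DESeq2 and limma called 0 of 10 in either group too. In sham mice all 10 log2 fold changes were above 0 (50.3% of all genes were), with Manf, Pdia4 and Hspa5 higher at an unadjusted p under 0.05 (4.47% of all genes). In ovariectomized mice 7 were below 0 (52.5% of all genes were), with Sdf2l1, Creld2 and Hsp90b1 lower at that p (5.36% of all genes). Manf averaged 137 ± 16.3 CPM at 5 months (n = 5) and 110 ± 11.99 CPM at 3 months (n = 3) in sham mice, and 100.7 ± 11.4 CPM and 110.1 ± 13.5 CPM in ovariectomized mice, at 5 and at 3 months. The libraries at 5 months serve this comparison and that of surgery, so the values are not independent.

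**Figure D4:**
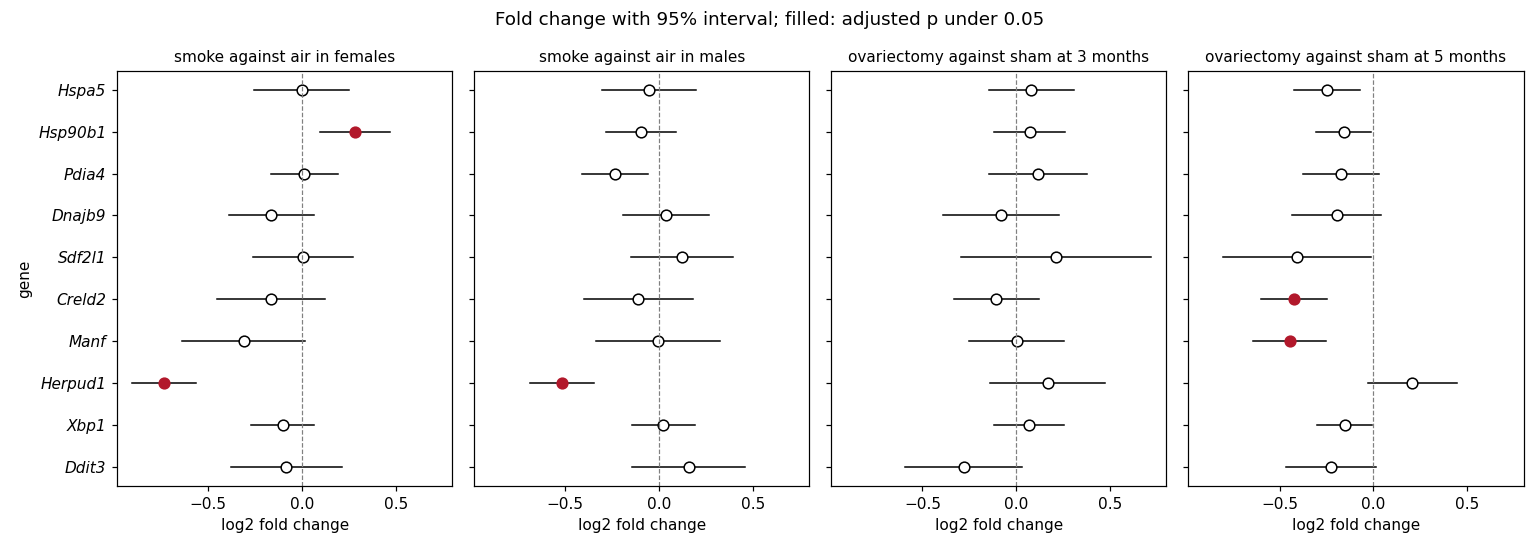
Log2 fold changes of the 10 genes (horizontal axis) with 95% intervals in 4 comparisons, filled where edgeR's adjusted p was under 0.05. Filled points are Herpud1 in both smoke panels (-0.73 in females and -0.52 in males), Hsp90b1 in females (0.28), and Creld2 and Manf for ovariectomy at 5 months (-0.42 and -0.45).

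Of the other genes of the pathway, 95 of 97 were tested in the second experiment. At 5 months 1 rose and 2 fell with ovariectomy, and 0 were called at 3 months, between the times or in the interaction. The 3 called are 3.16% of the 95, against 1.36% of all genes. Both that fell belong to the 16 genes of ER-associated degradation. Syvn1, which encodes the ubiquitin ligase HRD1, averaged 52.3 ± 2.73 CPM in ovariectomized and 67.2 ± 4.59 CPM in sham mice, with a log2 fold change of -0.36 (adjusted p = 0.0145, edgeR). Edem1, a lectin that delivers misfolded glycoproteins for degradation, averaged 83.1 ± 8.75 CPM in ovariectomized and 109 ± 8.99 CPM in sham mice, with a log2 fold change of -0.39 (adjusted p = 0.0187, edgeR). The median of that list was -0.0005. Psat1, an enzyme of serine synthesis and a target of ATF4, averaged 23.7 ± 4.0 CPM in ovariectomized and 15.7 ± 2.96 CPM in sham mice, with a log2 fold change of 0.60 (adjusted p = 0.0314, edgeR). Of the 20 chaperones and folding enzymes 0 were called, and their median was -0.01. The cytosolic heat shock list also had 0 calls, with a median of -0.07.

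Beside these results at 5 months, the sum of the nuclear RNAs Malat1 and Neat1 ran from 2398 to 3761 CPM in ovariectomized and from 4525 to 6893 CPM in sham mice, with no overlap and with 0 of the 2 called. The Per and Dbp arm of the clock ran from 812.5 to 1181 CPM in ovariectomized and from 602.5 to 833 CPM in sham mice, and 2 of its 10 genes rose, while 1 of 5 genes of the Bmal1 arm fell. Of 8 alveolar type 1 genes 2 rose (13020 to 13810 CPM in ovariectomized and 10290 to 13390 CPM in sham mice), and 1 of 9 mitochondrially encoded genes rose. The plasma cell list ran from 1560 to 2306 CPM in ovariectomized and from 1192 to 3085 CPM in sham mice, with 0 of 14 called, and the lists of alveolar type 2 cells, club cells, fibroblasts, macrophages, liver, cardiac muscle and adipocytes had 0 calls each. At 3 months, where neither Creld2 nor Manf was called, the clock lists did not overlap between the groups, with 0 calls in either list. The Per and Dbp arm ran from 767 to 1082 CPM in ovariectomized and from 481 to 588 CPM in sham mice. The Bmal1 arm ran from 122 to 156 CPM in ovariectomized and from 194 to 206 CPM in sham mice. The part of all these lists in the fall of Creld2 and Manf at 5 months was not tested. In the fit without the 5 libraries of this experiment over 100 CPM of Alb, of which 3 are from 5 months and 2 from 3 months, both genes were still called (log2 fold changes -0.45 for Creld2 and -0.40 for Manf, adjusted p = 0.0378 for both, edgeR).

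The members were also compared by how they varied between libraries of the same group. After the group means were subtracted from log2 CPM, each member was set beside the mean of the other 9 over the 32 libraries. Manf and Hspa5 followed the others most closely (Pearson r = 0.738 and 0.727), then Xbp1 (0.67), Creld2 (0.648), Pdia4 (0.598), Herpud1 (0.546) and Dnajb9 (0.53). Ddit3 (0.452), Sdf2l1 (0.403) and Hsp90b1 (0.265) followed them least. The 8 other genes most like the mean of the 10, among 10767 genes whose log2 CPM averaged 3 or more, were Osgin1 (r = 0.76), Caml (0.742), Hspa8 (0.737), Fkbp4 (0.732), Trabd (0.71), Cacybp (0.702), Ctdnep1 (0.68) and Hyou1 (0.679). Hyou1 encodes another chaperone of the ER, and Hspa8 a chaperone of the cytosol. The points share library depth and scaling, and the values are given as a description.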

How the data were processed

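RNA-seq of mouse lung was analysed from the deposited raw counts, whole-number counts per Ensembl gene. The deposited normalised values are TPM made by the authors from these counts: 100% of them were recovered within 1e-04 TPM from count over gene length. Per the labels, lung RNA came from a Trizol extraction and an NEBNext Ultra 2 kit. The submitters' processing notes name FastQC and the builds GRCm38 and mm10. No source used here gives the aligner, the counting program or the use of strand. All count columns were mapped to libraries, and 0 were left over.

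Each experiment was fitted on its own in R 4.3.3 with edgeR 4.0.16: genes kept by filterByExpr (16361 and 16874), TMM scaling, 1 mean per group and robust quasi-likelihood dispersions over 4 groups. A gene was called at a Benjamini-Hochberg adjusted p under 0.05 over all genes. CPM use the TMM-scaled totals of the experiment, so levels were compared between experiments only in TPM. Intervals are 95%. The scripts were tested on simulated data. At 13790052 to 24497332 counts per library every member had at least 247 counts. No 2 libraries of a group were near-copies, the lowest chi-square per degree of freedom being 9.51.

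The members, the lists of other genes and the limit of 100 CPM of Alb were chosen with earlier results of these data known. All 10 members are named, with the genes called in the lists and the 8 genes most like the members. Likeness is the Pearson correlation of log2 CPM (prior count 2) less group means. Alternatives were RLE factors, no filter or a strict one (3 or more libraries with 1 CPM or more), a block for the replicate number, all 32 libraries or only the groups compared in a fit, DESeq2 1.42.0 (Wald test), limma 3.58.1 on log2(TPM + 1) or log2(TPM + 0.1), leaving out libraries over 100 CPM of Alb, and leaving out each library. Replicate numbers showed no clear pairing of the libraries. Promoters are from RefSeq (GRCm38.p6), and gene coordinates are those of the deposited count table. Plots were made with Python 3.11.15 and matplotlib 3.10.9.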

Additional observations from a re-analysis of the deposited data

Results flagged for a closer look

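Ddit3 in male smoke library 3 stood apart from the other male smoke libraries. It was the highest at 24.99 CPM, against 22.7 CPM in the nearest and 21.9 CPM in the lowest, and this gap of 0.748 of the group's range is above Dixon's 95% critical value of 0.71 for 5 samples. It was the 1 value that stood out among 40 groups of 5 libraries examined, where chance flags about 1 in 20.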

How the results depend on the processing

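Smoke in females called 2 of the 10 members, and 1 (Herpud1) with no filter on low counts, with the replicate block, with only the groups compared, or without the libraries over 100 CPM of Alb, and between 1 and 2 when each library was left out. Hsp90b1 was the gene lost (adjusted p = 0.0575, 0.126, 0.0602 and 0.163 by edgeR in these 4 settings; between 0.00990 and 0.163 over all 10). Smoke in males called 1 member, and 2 with DESeq2 or without the Alb libraries, Pdia4 being added, and between 1 and 2 when each library was left out. Females against males in air called 0, and 1 (Herpud1) with DESeq2. Ovariectomy at 5 months called 2, and 1 (Creld2) with all 32 libraries in 1 fit, and between 1 and 2 when each library was left out. The cause was not tested. No called value changed its direction under any of these settings, while values that were not called changed sign in 49 cases of leaving out 1 library and in 33 of the other settings.

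The replicate numbers did not pair the libraries: deviations of libraries with the same number correlated at -0.299 to 0.196, and in no comparison were all of them over 0.1. With the replicate block, counts of members called were 1 for smoke in females, 1 for smoke in males, 2 for ovariectomy at 5 months and 0 elsewhere.

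Over all genes, smoke in females called 1259 genes (739 higher and 520 lower) with edgeR, 789 (542 and 247) with limma on log2(TPM + 1) 788 (553 and 235) on log2(TPM + 0.1), 842 (444 and 398) without the Alb libraries, and 490 to 1151 when each library was left out. Smoke in males called 1678 (806 and 872), 992 (394 and 598) and 991 (403 and 588) in the same order, 1403 (496 and 907) without the Alb libraries, and 962 to 1694 when each library was left out. For smoke, DESeq2 called more genes than edgeR, with 1676 (1037 and 639) in females and 2011 (946 and 1065) in males. The fit of all 32 libraries called 1383 (831 and 552) in females and 1682 (785 and 897) in males. Ovariectomy at 5 months called 230 (99 and 131) with edgeR, 602 (312 and 290) with DESeq2, 111 (39 and 72) without the Alb libraries, and 191 (17 and 174) and 197 (17 and 180) with limma on log2(TPM + 1) and log2(TPM + 0.1), and 39 to 259 when each library was left out. DESeq2 called 96 genes for ovariectomy at 3 months, where edgeR called 0, 10 with the replicate block, 6 with all 32 libraries, 3 with no filter, 2 with only the groups compared and 1 with limma. For females against males, edgeR called 31 genes in smoke and 29 in air, DESeq2 63 and 128, and limma 21 to 22 and 12 to 15, with 44 in air under the replicate block, 47 with all 32 libraries and 20 without the Alb libraries. For the sex interaction edgeR called 1, DESeq2 16, the fit of all 32 libraries 3, and limma and the replicate block 0, and for surgery by time edgeR called 0 and DESeq2 16. For 5 against 3 months edgeR called 1 in sham and 3 in ovariectomized mice, DESeq2 104 and 75, and the other settings 0 to 18 and 2 to 9. Leaving out each library gave 20 to 34 for the sexes in smoke, 10 to 42 in air, 0 to 4 for the sex interaction, 0 to 6 for ovariectomy at 3 months, 0 for surgery by time, and 0 to 14 and 0 to 6 for 5 against 3 months in sham and in ovariectomized mice. The lowest count of a member in any library was 247, and how far depth, spread and group size each limit the calls was not compared.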
